A study of Mus musculus with 20 samples.

Results

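The genes described here encode the proteins that make microRNAs (miRNAs) and carry them to their targets: Drosha, Dgcr8, Xpo5, Dicer1, Tarbp2, Ago1, Ago2 and Ago3, together with Tut4 and Tut7, the uridyltransferase genes formerly named Zcchc11 and Zcchc6. They were chosen by name and function, 10 genes of the 35580 that the deposited transcripts map to. The study sequenced RNA from the hippocampus and the neocortex (labelled cerebral cortex) of mice that lack miR-324 and of wild-type (WT) controls. There were 4 groups of 5 samples: hippocampus WT, hippocampus miR-324-null, neocortex WT and neocortex miR-324-null. All animals were of the C57BL/6J strain, were male by the study's methods and were 13.5 months old, and none carried a Cre driver or received a treatment. The null allele is a CRISPR/Cas9 deletion at the Mir324 locus, present in every cell from conception, made in founders of mixed C57BL/6 and CBA/ca background and crossed back to C57BL/6J. Such an animal lacks both mature arms, the 5p as well as the 3p product of the hairpin. The labels number the samples within a group without naming animals, so p-values measure the spread between these samples, and whether a hippocampus and a neocortex with the same number came from 1 mouse is not stated.

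A miRNA is transcribed as a long hairpin-bearing RNA. In the nucleus the Microprocessor, made of the RNase III enzyme Drosha and its RNA-binding partner Dgcr8, cuts out the hairpin, and Exportin-5 (Xpo5) carries it to the cytoplasm. Dicer1, helped by the double-stranded RNA-binding protein Tarbp2, removes the loop, and 1 strand of the remaining duplex is loaded into an Argonaute protein, which it guides to matching sites in mRNA. The terminal uridyltransferases Tut4 and Tut7 add uridines to the ends of hairpin precursors, and the miR-324 precursor is a known substrate, in which the added uridines move the Dicer cut and so change which arm is kept. In neurons this machinery acts in the soma and near synapses, and loss of Dicer1 in the forebrain is known to harm neurons. The data bear on whether the mRNAs of the machinery differ when 1 miRNA of the brain is missing, and whether they differ between hippocampus and neocortex.

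The mature arms are shown first because their seeds, bases 2 to 8 in capitals, decide which of these mRNAs hold a candidate site. The sequences and their places on chromosome 11 of GRCm38.p6, forward strand, are those of RefSeq. The 5p arm lies at chr11:70012060-70012082 and the 3p arm at chr11:70012095-70012114.
mmu-miR-324-5p: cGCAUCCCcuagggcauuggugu
mmu-miR-324-3p: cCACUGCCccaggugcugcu
The reverse complements of the seeds, GGGATGC for 5p and GGCAGTG for 3p, were searched on the sense strand of the annotated 3′ untranslated regions (GENCODE M21, GRCm38). None of the matches found overlaps another, and forms of an arm with a shifted start, which would have another seed, were not searched. A match is called 8mer where an A follows it, and 7mer-m8 otherwise.

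The 5p motif stood in the 3′ untranslated region of 3 of the 10 genes, Ago2, Dicer1 and Tut7, against 9.59% of the 14293 genes with such a region. The 3p motif stood in 4 of the 10, Ago1, Ago2, Ago3 and Dicer1, against 17.2%. These genes also have long 3′ untranslated regions: 12742 bases in Ago3, 11064 in Ago2, 4491 in Ago1 and 3851 in Dicer1, where the median of all genes was 1249, and a longer region holds any 7-base motif more often. No other member had a match, and their longest regions ran from 169 bases in Drosha to 1574 in Dgcr8. The matches are printed below, because they are the candidate contacts between the deleted miRNA and these mRNAs, with 8 bases on either side and the match in capitals. All of them lie in 3′ untranslated exons on the reverse strand of GRCm38.
Ago1, 3p, 8mer, chr4:126436191-126436197: ggagaagaGGCAGTGaaggagac
Ago2, 3p, 8mer, chr15:73106282-73106288: gtgtttacGGCAGTGacaagtcc
Ago3, 3p, 8mer, chr4:126336710-126336716: tgcaagcaGGCAGTGaaggggaa
Dicer1, 3p, 7mer-m8, chr12:104691099-104691105: ctgtggagGGCAGTGgaggcggg
Dicer1, 3p, 7mer-m8, chr12:104690631-104690637: ctgtactaGGCAGTGttgccaga
Dicer1, 3p, 7mer-m8, chr12:104689005-104689011: acaggctgGGCAGTGctccggca
Ago2, 5p, 7mer-m8, chr15:73106412-73106418: agttctaaGGGATGCcatgcgcc
Dicer1, 5p, 7mer-m8, chr12:104688924-104688930: aacattctGGGATGCctgcagct
Tut7, 5p, 8mer, chr13:59820318-59820324: tgaaattgGGGATGCatcctgtc
Ago1, Ago2 and Ago3 thus each carry an 8mer match for the 3p arm, a kind found in 4.401% of all genes, and Tut7 carries an 8mer match for the 5p arm, found in 2.99%. The Tut7 match lies only in a shorter coding transcript, Tut7-207, and not in the 2 transcripts that carry most of the gene's reads. A match in sequence is a description of the letters and does not show that the site is used.

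The libraries held 12752439 to 19617765 estimated counts each. The genes described here had 206 to 2439 estimated counts per library, the fewest in Tarbp2 and Dgcr8, where counting error weighs most. Marker genes fitted the tissue labels in every library: the summed level of 8 hippocampal markers was 598 to 792 CPM (counts scaled to a common library total) in the hippocampus and 146 to 295 in the neocortex, and that of 8 neocortical markers was 156 to 258 and 527 to 851. By genotype, the neocortical markers were at 702 to 780 CPM in neocortex WT and 564, 527, 612, 620 and 851 in neocortex miR-324-null 1 to 5. The hippocampal markers averaged 177 ± 19.5 CPM in neocortex WT and 231 ± 48.6 in neocortex miR-324-null. The part of these differences in the comparisons below was not tested. Some libraries stood apart in tissue that adjoins the dissected region. The 6 choroid plexus markers summed to 4529 CPM in hippocampus WT 3 and 3891 in hippocampus miR-324-null 5 against at most 140 in the other hippocampal libraries, and to 803 in neocortex miR-324-null 2 against at most 65.1 in the other neocortical ones. The 7 striatal markers summed to 189 to 461 CPM in neocortex WT and 280 to 689 in neocortex miR-324-null. The deposited tables list no transcript of Mir324 itself, so the deletion was not checked here.

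Compared per length in TPM (abundance per base of transcript, scaled to a common total), Drosha was the most abundant of the 10 mRNAs and Ago3 the least in each of the 4 groups. Drosha stood at 43.2 ± 3.36 TPM in hippocampus WT (SD, n = 5), 45.3 ± 2.17 in hippocampus miR-324-null, 45.4 ± 2.21 in neocortex WT and 48.2 ± 2.66 in neocortex miR-324-null. Ago3 stood at 6.25 ± 0.850, 6.26 ± 0.609, 6.86 ± 1.17 and 6.91 ± 1.06 TPM in the same order of groups. In every group the lowest Drosha sample lay above the highest sample of the gene ranked next, Tut7, and the highest Ago3 sample lay below the lowest of the gene ranked before it. In hippocampus WT the order below Drosha was Tut7 at 28.8 ± 2.50, Tarbp2 at 24.1 ± 2.62, Ago1 at 23.3 ± 1.79, Xpo5 at 22.4 ± 2.41 and Tut4 at 20.8 ± 2.37 TPM, and the ranges of neighbours in this run overlapped. Below a further gap came Ago2 at 13.4 ± 0.939, then Dicer1 at 11.04 ± 1.07 and Dgcr8 at 10.3 ± 2.06 TPM. The gap above Ago2 was present in all 4 groups, while Dicer1 and Dgcr8 overlapped each other in every group and changed places. The levels summed over the 10 genes were 203 ± 13.2, 205 ± 11.4, 212 ± 16.4 and 216 ± 11.8 TPM in the order of groups given above.

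The order depended in part on short transcripts. Tut4-205, an annotated transcript of 587 bases, held 31.8 to 52.8% of the gene's TPM over the 20 libraries but on average no more than 9.67% of its estimated counts in any group. With only transcripts of at least 1000 bases, an alternative added after the values were seen, Tut4 stood at 6.56 ± 0.775, 6.91 ± 0.749, 8.49 ± 1.31 and 8.67 ± 1.34 TPM and ranked 9 of 10 in every group. In hippocampus WT, Tut7 then ranked 4 at 22.3 TPM and Tarbp2 5 at 18.3 TPM, behind Ago1 and Xpo5. Drosha stayed first and Ago3 stayed last under that choice.

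For comparisons between groups, the counts of each gene were scaled to CPM with library size factors (trimmed mean of M values, TMM) and tested with edgeR's quasi-likelihood test over all genes that passed its filter on low counts. A gene was called where its Benjamini-Hochberg adjusted p was at most 0.05. Each genotype comparison used the 10 libraries of 1 tissue, and the tissue comparisons used all 20 libraries. All 10 genes passed the filter in each fit. In bulk RNA, fewer cells that express a gene and less of its RNA per cell cannot be told apart. The 2 genotype comparisons share no library with each other, whereas each tissue comparison shares its libraries with both.

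None of the 10 genes was called between miR-324-null and WT in the hippocampus, where 0.115% of 14796 genes were called. None was called in the neocortex, where 0.315% of 14930 genes were. Differences ran from -0.19 (Ago2) to 0.10 (Drosha) on the log2 scale in the hippocampus and from -0.10 (Tut7) to 0.14 (Tarbp2) in the neocortex, with a median over the 10 genes of -0.02 and -0.01 where the median over all genes was 0.00 in both. The 95% intervals together reached from 0.780-fold to 1.17-fold in the hippocampus and from 0.854-fold to 1.24-fold in the neocortex, so a change of any member beyond these bounds lay outside its interval. The smallest adjusted p over the set was 0.415 for hippocampi and 0.530 for neocortices (edgeR). At an unadjusted p of at most 0.05 there were 2 of the 10 in the hippocampus, Drosha and Ago2, where 11.1% of all genes reached that level, and 0 of the 10 in the neocortex, where 12.2% did. DESeq2, another count test, called none of the 10 in either tissue. No member had genotype groups that did not overlap, in the hippocampus (2.55% of all genes) or in the neocortex (2.30%). A test of whether the genotype difference itself differed between tissues called none of the 10 (0.0195% of 15391 genes), with a lowest adjusted p of 0.945, and none reached an unadjusted p of 0.05 (5.57% of genes).

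**Figure D1:**
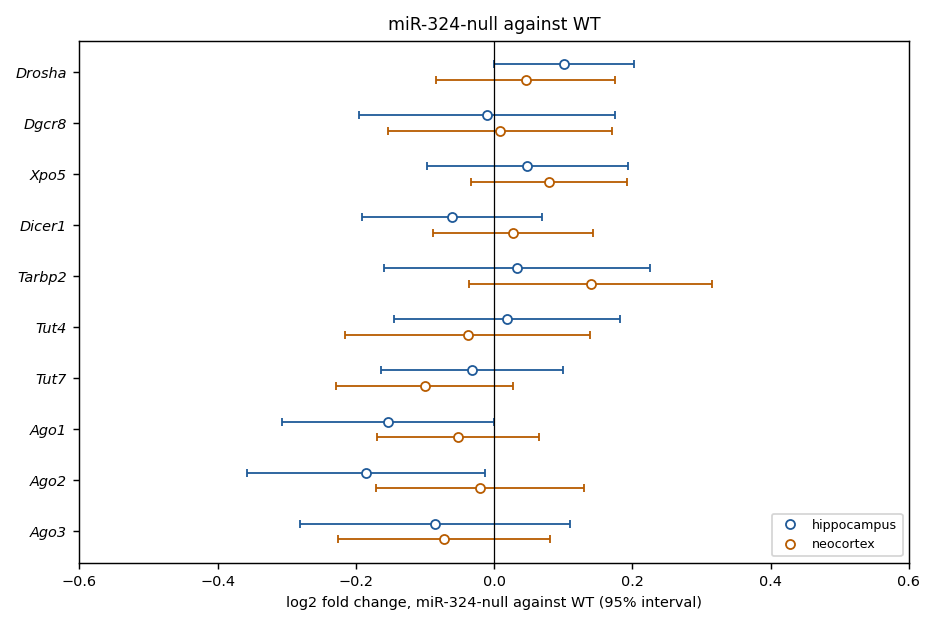
log2 fold change of miR-324-null against WT for the 10 genes in hippocampus (blue) and neocortex (orange), with 95% intervals from edgeR. Open points did not pass an adjusted p of 0.05, and all 20 points are open, lying between -0.19 and 0.14.

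Drosha (ENSMUSG00000022191, chr15:12824815-12935291, forward strand, GRCm38) encodes the nuclease of the Microprocessor. In hippocampus WT its CPM was 107, 117, 114, 115 and 115 in replicates 1 to 5, and in hippocampus miR-324-null it was 122, 126, 125, 123 and 113. In neocortex WT it was 123, 135, 109, 111 and 122, and in neocortex miR-324-null 122, 114, 123, 124 and 132. Of the null hippocampi, 4 lay above every WT hippocampus and the other, replicate 5, lay inside the WT range. The difference in the hippocampus was 0.10 ± 0.05 (log2, SE; adjusted p = 0.451), against 0.05 ± 0.06 in the neocortex (adjusted p = 0.812).

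Dgcr8 (ENSMUSG00000022718, chr16:18253948-18289246, reverse strand) encodes the protein that grips the hairpin for Drosha, and its own mRNA holds a hairpin that the Microprocessor is known to cut. It had one of the lowest CPM values of the set, 17.0 to 21.7 in hippocampus WT, 16.7 to 19.9 in hippocampus miR-324-null, 16.7 to 20.3 in neocortex WT and 16.8 to 21.1 in neocortex miR-324-null. These 4 ranges lay nearly on top of each other, and the genotype differences were -0.01 ± 0.09 and 0.01 ± 0.08 in hippocampus and neocortex. Per length, Drosha stood at 3.32 to 4.78 times Dgcr8 in hippocampus WT, 3.84 to 4.72 in hippocampus miR-324-null, 3.51 to 4.43 in neocortex WT and 3.72 to 4.77 in neocortex miR-324-null. Reads of Dgcr8 are uncertain in part, because it shares 825 identical bases with the opposite-strand gene Trmt2a, which is also expressed. The library kit was stranded, but whether the counting used strand is not given in the sources used here.

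Xpo5 (ENSMUSG00000067150, chr17:46202782-46243598, forward strand), the export receptor for hairpin precursors, stood at 54.0 to 64.2 CPM in hippocampus WT, 57.5 to 66.6 in hippocampus miR-324-null, 52.7 to 58.3 in neocortex WT and 53.0 to 61.2 in neocortex miR-324-null. The groups overlapped in both tissues, with genotype differences of 0.05 ± 0.07 in the hippocampus and 0.08 ± 0.05 in the neocortex (adjusted p = 0.841 and 0.589).

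Dicer1 (ENSMUSG00000041415, chr12:104687742-104751952, reverse strand), which cuts the precursor to its mature length, stood at 57.5 to 69.5 CPM in hippocampus WT, 55.6 to 64.0 in hippocampus miR-324-null, 59.4 to 63.8 in neocortex WT and 56.1 to 67.4 in neocortex miR-324-null. Its 3′ untranslated region holds 4 seed matches, 3 for 3p and 1 for 5p, whose use was not tested. The genotype differences of Dicer1 were -0.06 ± 0.06 in the hippocampus and 0.03 ± 0.05 in the neocortex (adjusted p = 0.757 and 0.891). The upper 95% bounds were 1.05-fold and 1.104-fold.

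Tarbp2 (ENSMUSG00000023051, chr15:102518192-102523676, forward strand), the Dicer partner, stood at 15.7 to 19.8 CPM in hippocampus WT, 15.6 to 20.7 in hippocampus miR-324-null, 14.01 to 19.0 in neocortex WT and 17.6 to 18.4 in neocortex miR-324-null. The null neocortices were close together within the wider WT range, and their mean lay 0.14 ± 0.08 higher (adjusted p = 0.530), against 0.03 ± 0.09 in the hippocampus (adjusted p = 0.930).

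Tut4 (ENSMUSG00000034610, chr4:108459426-108559421, forward strand) and Tut7 (ENSMUSG00000035248, chr13:59771561-59823147, reverse strand) encode the uridyltransferases that act on the miR-324 precursor. Tut4 was at 22.8, 28.1, 25.7, 26.2 and 27.3 CPM in hippocampus WT, and at 27.3, 23.2, 28.9, 26.98 and 25.4 in hippocampus miR-324-null. In neocortex WT it was at 31.7, 28.4, 35.7, 34.9 and 30.6 CPM, and in neocortex miR-324-null at 30.6, 35.6, 28.7, 33.1 and 28.2. The genotypes overlapped in both tissues, and the neocortex was the higher tissue in both genotypes. The genotype differences of Tut4 were 0.02 ± 0.08 in the hippocampus and -0.04 ± 0.08 in the neocortex (adjusted p = 0.956 and 0.904).

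Tut7 was at 60.6, 57.6, 56.5, 62.3 and 61.4 CPM in hippocampus WT, and at 53.8, 55.6, 64.6, 61.8 and 55.8 in hippocampus miR-324-null. In neocortex WT it was at 66.1, 63.0, 67.6, 73.9 and 61.9 CPM, and in neocortex miR-324-null at 55.9, 65.0, 61.3, 63.9 and 62.5. WT and miR-324-null overlapped in both tissues. The genotype differences of Tut7 were -0.03 ± 0.06 in the hippocampus and -0.10 ± 0.06 in the neocortex (adjusted p = 0.890 and 0.539).

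Ago1 (ENSMUSG00000041530, chr4:126435012-126468583, reverse strand), Ago2 (ENSMUSG00000036698, chr15:73095844-73184935, reverse strand) and Ago3 (ENSMUSG00000028842, chr4:126331704-126429556, reverse strand) encode Argonautes, of which Ago2 is the one known to cut fully matched targets. Ago1 was at 96.7, 98.5, 102, 105.1 and 91.6 CPM in hippocampus WT, and at 76.8, 80.9, 94.5, 94.96 and 96.5 in hippocampus miR-324-null. In neocortex WT it was at 93.9, 82.4, 87.1, 88.0 and 85.2 CPM, and in neocortex miR-324-null at 84.1, 91.8, 78.7, 85.6 and 78.9. Null hippocampi 1 and 2 lay below every WT hippocampus, and the other three lay inside the WT range. Hippocampi of the 2 genotypes differed by -0.15 ± 0.07 (adjusted p = 0.454), and neocortices by -0.05 ± 0.05 (adjusted p = 0.756).

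Ago2 was at 112, 114, 112, 122 and 110 CPM in hippocampus WT, and at 89.4, 85.7, 100, 112 and 115 in hippocampus miR-324-null. In neocortex WT it was at 125, 98.8, 108, 102 and 104 CPM, and in neocortex miR-324-null at 99.05, 106, 96.8, 117 and 108. Null hippocampi 1, 2 and 3 lay below the WT range and 4 and 5 inside it. The difference in the hippocampus was -0.19 ± 0.08, the largest in size of any member in either tissue, with an unadjusted p of 0.0365 and an adjusted p of 0.415 (edgeR). In the neocortex it was -0.02 ± 0.07 (adjusted p = 0.942), and the test of the difference between tissues gave -0.16 ± 0.11 (adjusted p = 0.945). Ago2 shares 222 bases with the opposite-strand gene Chrac1.

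Ago3 stood at 48.1 to 62.3 CPM in hippocampus WT, 41.7 to 56.0 in hippocampus miR-324-null, 51.7 to 63.0 in neocortex WT and 48.9 to 60.1 in neocortex miR-324-null, with genotype differences of -0.09 ± 0.09 and -0.07 ± 0.07. The 3 Argonautes had point estimates below 0 in both tissues, and none was called. Each carries an 8mer match for miR-324-3p, whose part in these values was not tested.

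The fourth Argonaute gene of the mouse, Ago4, is not among the 10 and was measured alongside. Its genotype difference in the hippocampus was -0.19 ± 0.09 (edgeR, adjusted p = 0.469). In the neocortex it was 0.010 to 0.028 over the alternative settings. Of the TPM summed over the 4 Argonaute genes, Ago1 made up 49.6 ± 2.44% in hippocampus WT and 49.3 ± 2.19% in hippocampus miR-324-null, and Ago2 made up 28.5 ± 0.551% and 27.7 ± 1.001%. Of 8 comparisons of these shares between genotypes, 4 Argonautes in 2 tissues, none was called by exact two-sided permutation tests, and the lowest adjusted p was 0.762. Per length, Ago1 had the largest share in every group and Ago4 the smallest.

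**Figure D2:**
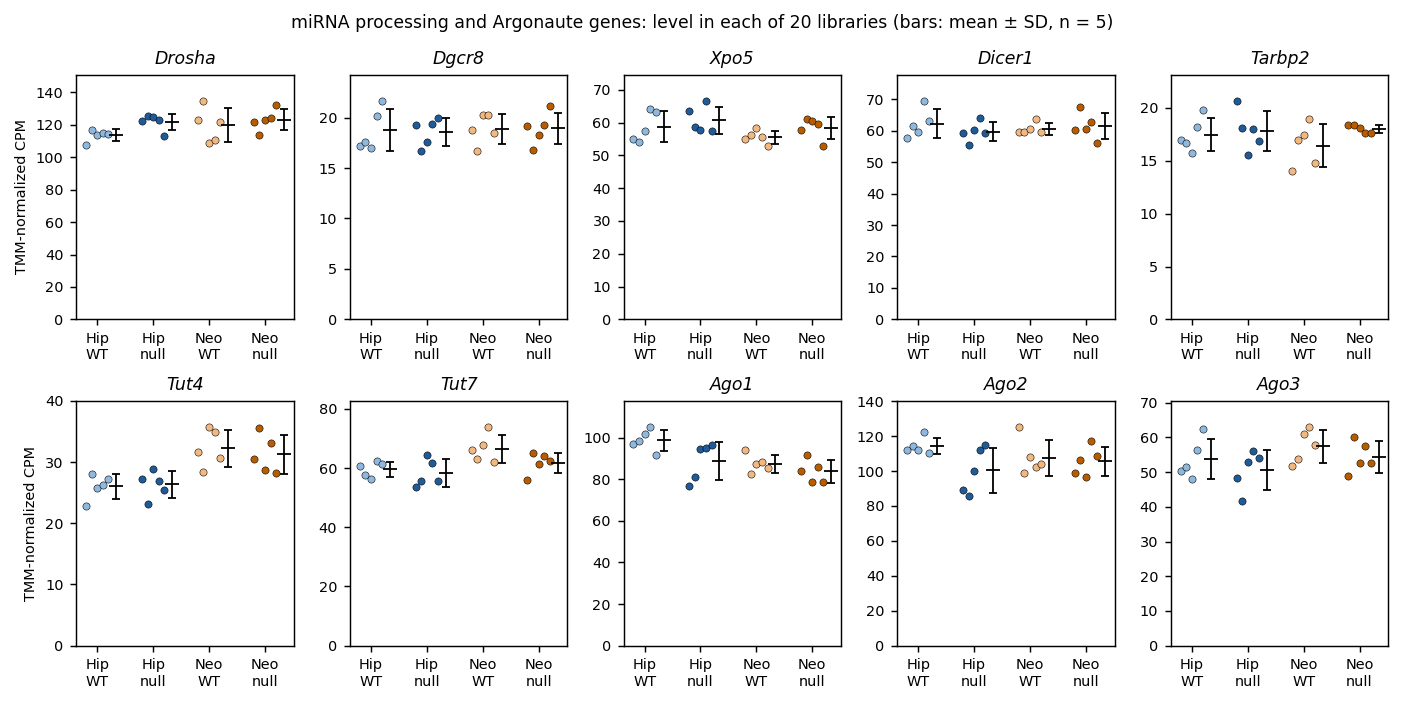
TMM-normalized CPM of each gene in each of the 20 libraries, by group (Hip, hippocampus; Neo, neocortex; null, miR-324-null), with the mean and SD of 5 libraries beside the points and axes from 0. Genotypes overlap in every panel, and in WT the Tut4 points of the hippocampus (at most 28.1) lie below those of the neocortex (at least 28.4).

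Between tissues, 3 of the 10 genes were called in WT, where 33.5% of 15391 genes were called, and 1 of the 10 in miR-324-null, where 32.5% were. In WT 1 of them was higher in the hippocampus (16.6% of all genes) and 2 were lower (16.9%), and in miR-324-null 0 were higher (16.1%) and 1 was lower (16.4%). By unadjusted p alone, at 0.05, the members numbered 3 in WT (41.6% of all genes) and 1 in miR-324-null (41.7%). Tut4 was called in both genotypes and was lower in the hippocampus: by -0.31 ± 0.08 in WT (adjusted p = 0.00451) and by -0.25 ± 0.08 in miR-324-null (adjusted p = 0.0211). In WT the Tut4 groups did not overlap, 22.8 to 28.1 CPM in the hippocampus and 28.4 to 35.7 in the neocortex, and it was the only member of which this held (25.9% of all genes). In miR-324-null the highest hippocampal value, 28.9, lay above the lowest neocortical one, 28.2 (20.8% of all genes did not overlap). Tut7, the paralog, was lower in the hippocampus in WT by -0.16 ± 0.06 (adjusted p = 0.0465), and Ago1 was higher there by 0.18 ± 0.06 (adjusted p = 0.0377). In miR-324-null the same differences were -0.08 ± 0.06 for Tut7 and 0.08 ± 0.06 for Ago1 (adjusted p = 0.316 and 0.352). The other 7 genes differed between tissues by -0.10 (Ago3) to 0.08 (Ago2, Tarbp2 and Xpo5) in WT and by -0.10 (Ago3) to 0.06 (Xpo5) in miR-324-null, and none of these was called. The Tut4 and Ago1 differences between tissues did not themselves differ between genotypes by the interaction test, with log2 differences of 0.06 ± 0.11 and -0.09 ± 0.09 (adjusted p = 0.982 and 0.963).

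The Tut4 call in WT held without any 1 of the 20 libraries, hippocampus WT 3 with its choroid plexus RNA included, at log2 differences of -0.35 to -0.26. It did not hold with a length offset in the fit, where the difference was -0.30 (adjusted p = 0.141). The offset was the gene's mean effective transcript length in each library, weighted by TPM. Each transcript's effective length was the same in all 20 libraries, so the offset varied only with the estimated split over transcripts. In miR-324-null the Tut4 call was lost without hippocampus replicate 2 or 5 or neocortex replicate 2 or 4, at adjusted p of 0.0534 to 0.0856. It was also lost with the length offset, where the difference was -0.14 (adjusted p = 0.505). The Ago1 call was lost without hippocampus WT 3 or 4 or neocortex WT 2, 3, 4 or 5 (adjusted p of 0.0560 to 0.0856), and the Tut7 call held in only 3 of the 20 fits that left out 1 library, those without hippocampus miR-324-null 2 or 3 or neocortex WT 5. The striatal markers, at 114 to 179 CPM in the hippocampus, were higher in every neocortical library, and their part in these differences was not tested.

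**Figure D3:**
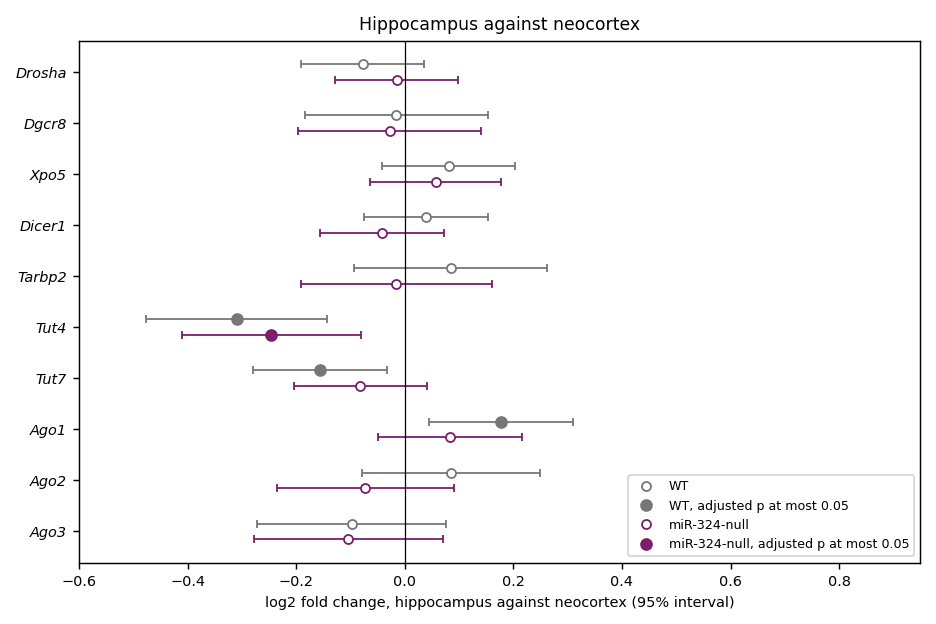
log2 fold change of hippocampus against neocortex for the 10 genes in WT (grey) and miR-324-null (purple), with 95% intervals from edgeR over all 20 libraries. Filled points passed an adjusted p of 0.05: Tut4 in both genotypes (-0.31 and -0.25), and Tut7 (-0.16) and Ago1 (0.18) in WT.

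The deposited tables give values per transcript, so the split of each gene over its annotated transcripts was also compared. The 10 genes have 75 transcripts in the tables. A single transcript held most of the TPM of Ago2 (Ago2-201, 93.9 to 100% in each library), Ago1 (Ago1-201, 89.0 to 98.9%), Ago3 (Ago3-201, 71.5 to 95.8%) and Dicer1 (Dicer1-201, 68.0 to 92.3%). Tarbp2, by contrast, was divided over many forms, and transcripts annotated as not coding a full protein, such as retained-intron forms and targets of nonsense-mediated decay, made up 33.8 to 59.9% of its TPM. For Dgcr8 such forms made up 42.6 to 62.2%, for Xpo5 15.8 to 61.1%, and for Drosha only 0.767 to 9.38%.

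The share of the leading transcript was compared between genotypes in 20 exact two-sided permutation tests, for which 0.00794 is the smallest p that 5 against 5 samples allow, and none was called after adjustment. The lowest adjusted p, 0.159, was shared by 4 of them. Drosha-207 made up 76.9 ± 12.4% of Drosha TPM in hippocampus WT and 59.7 ± 10.3% in hippocampus miR-324-null (exact permutation p = 0.0317), and 53.3 ± 25.4% and 73.9 ± 18.2% in the neocortex (exact permutation p = 0.190). Over the 20 libraries its share ran from 19.0 to 94.9%. Its counterpart Drosha-201 has the same coding bases and shares 4518 of its 4519 bases with Drosha-207, which has 52 bases of its own outside the coding part, so few reads can assign a fragment to one or the other. Dicer1-201 made up 88.7 ± 3.47% of Dicer1 TPM in neocortex WT and 80.2 ± 6.93% in neocortex miR-324-null (exact permutation p = 0.0159). The latter group includes replicate 2 at 68.0%, the neocortical library with choroid plexus RNA, whose part in this share was not tested. Hippocampus WT 3 and hippocampus miR-324-null 5 held more of that RNA. The Dicer1-201 share was at least 80.5% in hippocampus WT and 83.2% in hippocampus miR-324-null. Tarbp2-201 made up 38.1 ± 5.95% in hippocampus WT and 46.3 ± 4.28% in hippocampus miR-324-null (exact permutation p = 0.0238), and Ago1-201 96.5 ± 2.22% and 91.9 ± 2.97% in the neocortex (exact permutation p = 0.0317). As shares of estimated counts, which do not weight short transcripts up, the differences of Ago1-201, Dicer1-201 and Tarbp2-201 were smaller. Ago1-201 then made up 99.4% in neocortex WT and 98.5% in neocortex miR-324-null, and Dicer1-201 94.1% and 89.3%. In the hippocampus Tarbp2-201 differed by 7.23 percentage points by counts and 8.24 by TPM. Drosha-207 differed there by -19.4 by counts and -17.2 by TPM. None of the 20 was called on the scale of counts.

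Of the 75 transcripts, 26 passed the filter in the hippocampus and 30 in the neocortex when each transcript was tested with edgeR, and none was called (0.0291% of 34338 transcripts and 0.0249% of 36164). At an unadjusted p of at most 0.05 there were 2 and 4 of them, where 4.62% and 6.26% of all transcripts reached it. Tut7-204, a retained-intron form, was among them in both tissues, at -0.57 ± 0.25 in the hippocampus and -0.56 ± 0.21 in the neocortex (adjusted p = 0.9999 and 0.755), from a level of 26.5 to 41.3 estimated counts per library on average in the 4 groups. The other in the hippocampus was Ago2-201 (-0.19 ± 0.08). Those in the neocortex were Tut7-203 (-0.27 ± 0.09), Xpo5-201 (0.23 ± 0.10) and Tarbp2-205 (0.49 ± 0.21).

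**Figure D4:**
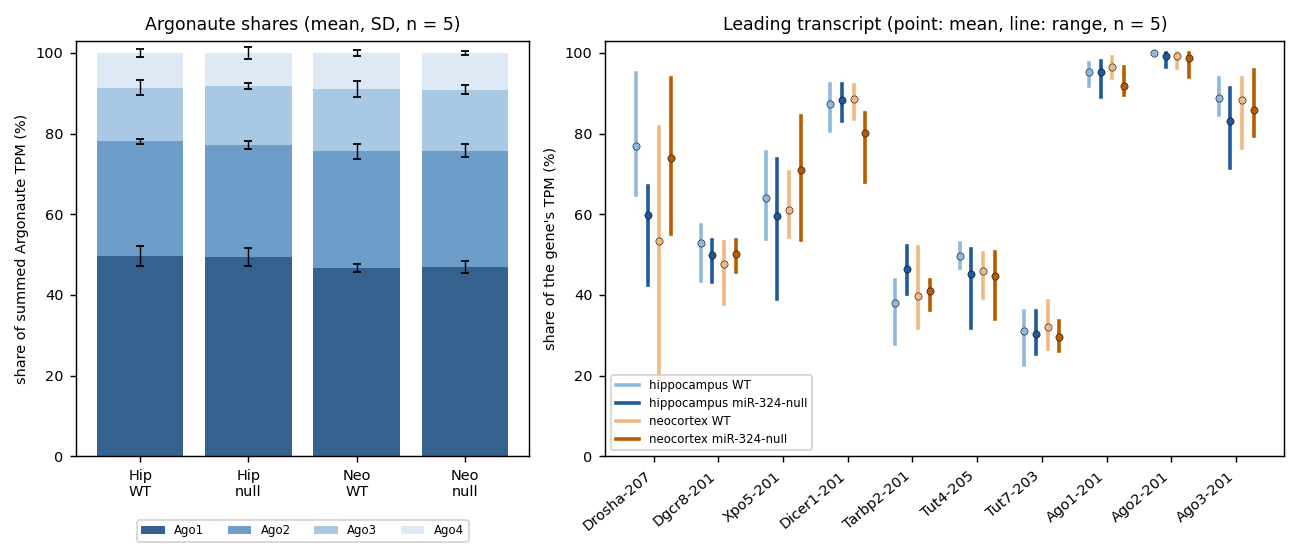
Left, mean share of each Argonaute gene in the summed Argonaute TPM of the 4 groups, with the SD of 5 libraries; right, share of each gene's TPM held by its leading transcript, as the mean (point) and range (line) over 5 libraries. Ago1 makes up close to 50% of Argonaute TPM in the hippocampus, and the Drosha-207 share spreads from 19.0 to 94.9%.

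A further 50 genes of the pathway in 5 lists set the 10 in context, and 49 of them were tested (Lin28a did not pass the filter). None of the 49 was called between genotypes in either tissue, and none in the interaction, with lowest adjusted p of 0.264, 0.299 and 0.868. At an unadjusted p of at most 0.05 there were 6 of the 49 in the hippocampus, 2 in the neocortex and 3 in the interaction, against 11.1%, 12.2% and 5.57% of all genes tested. The median of their genotype differences was -0.01 for hippocampi and 0.01 for neocortices.

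Between tissues, 16 of the 49 were called in WT, 7 higher and 9 lower in the hippocampus, and 18 of the 49 in miR-324-null, 10 higher and 8 lower, close to the 33.5% and 32.5% of all genes. Of the 11 Argonaute partners and loading factors, 5 were called in WT and 6 in miR-324-null. Snd1, a nuclease found in the silencing complex, was higher in the hippocampus by 0.40 ± 0.04 in WT and 0.46 ± 0.04 in miR-324-null, and its groups did not overlap in either genotype. Fmr1, which encodes the RNA-binding protein lost in fragile X syndrome, was lower by -0.28 ± 0.05 and -0.27 ± 0.05, again without overlap. The GW182 genes encode proteins that bind Argonautes to recruit deadenylases. In WT Tnrc6c was higher by 0.26 ± 0.07 and Tnrc6a lower by -0.19 ± 0.07, and in miR-324-null Tnrc6b was lower by -0.24 ± 0.09. The Hsp90 cochaperone gene Ptges3 was higher by 0.27 ± 0.06 in miR-324-null. Tnrc6a held its call in only 3 of 20 fits that left out 1 library, and Tnrc6b in 12 of 20. Tnrc6b also held it in 4 of 6 other settings, and with the length offset its difference in miR-324-null was -0.99.

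Of the 4 export and dicing partners, 2 were called in WT and 3 in miR-324-null. The adenosine deaminase genes Adar and Adarb1, whose enzymes edit hairpin precursors, were lower in the hippocampus by -0.28 ± 0.07 and -0.27 ± 0.06 in WT and by -0.31 ± 0.07 and -0.36 ± 0.06 in miR-324-null. Ran, the GTPase that Xpo5 needs, was higher by 0.23 ± 0.05 in miR-324-null. Of the 9 Microprocessor partners, 1 was called in WT and 3 in miR-324-null, Erh among them in both, higher by 0.23 ± 0.06 and 0.34 ± 0.06, and Hnrnpa1 in miR-324-null by 0.18 ± 0.05.

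Of the 10 tested genes of miRNA tailing, trimming and decay, 6 were called in WT and 4 in miR-324-null. Lin28b, whose protein blocks the maturation of let-7, had the widest differences of any list: 3.60 ± 1.34 CPM in hippocampus WT against 6.75 ± 1.60 in neocortex WT, a difference of -0.91 ± 0.22, and -1.08 ± 0.22 in miR-324-null. Trim71, a known let-7 target that encodes an RNA-binding protein, was higher in the hippocampus by 0.80 ± 0.16 and 1.0 ± 0.16, from 2.22 ± 0.298 CPM in the hippocampus and 1.27 ± 0.143 in the neocortex of WT. Tsnax, which encodes the partner of translin in an RNA-cutting complex, was lower by -0.34 ± 0.06 and -0.20 ± 0.06, and Parn, a poly(A)-specific trimming nuclease, higher by 0.24 ± 0.09 and 0.27 ± 0.09. Of the 15 deadenylation and decapping genes, 2 were called in each genotype: the 4E-T gene Eif4enif1 lower by -0.19 ± 0.05 and -0.20 ± 0.05 in both, Lsm1 higher by 0.26 ± 0.08 in WT and the deadenylase gene Cnot8 higher by 0.17 ± 0.06 in miR-324-null. Parn held in 13 of 20 leave-one-out fits in WT and in 18 of 20 in miR-324-null, Lsm1 in 19 of 20 and Cnot8 in 17 of 20.

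**Figure D5:**
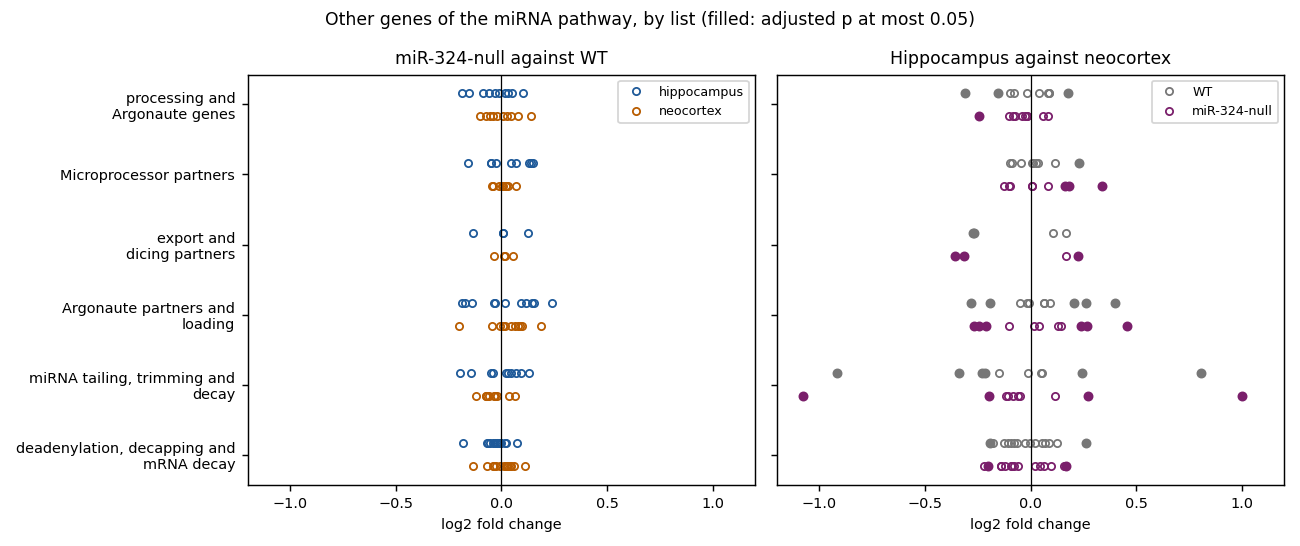
log2 fold change of every tested gene by list, for miR-324-null against WT (left; hippocampus blue, neocortex orange) and for hippocampus against neocortex (right; WT grey, miR-324-null purple), with filled points for an adjusted p of at most 0.05. No point is filled on the left, and the farthest points on the right are Lin28b (-0.91 and -1.08) and Trim71 (0.80 and 1.0).

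For 4 of the members, the genes with the most similar pattern over the 20 libraries were named by Pearson's r of log2 CPM, as a description that rests in part on depth and tissue. Tut4 was most like Chd6 (r = 0.91), Kmt2e (0.88) and Rfx7 (0.88), and Ago2 most like Rbm27 (0.88), Fam135b (0.85) and Ncor1 (0.83). Dicer1 was most like Cep350 (0.84), Zzz3 (0.82) and Mycbp2 (0.79), and Drosha most like Mchr1 (0.80), Clptm1 (0.76) and Psmd12 (0.74). After the group means were taken out, r stayed between 0.66 (Psmd12) and 0.92 (Ncor1). Among the members themselves the highest values after taking out group means were 0.76 for Ago1 with Ago2 and 0.72 for Xpo5 with Dicer1, all from the same 20 libraries.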

How the data were processed

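Total RNA was extracted from 20 tissue samples, and by the study's methods the sequenced libraries were made from it with a stranded mRNA kit. The authors quantified each library with kallisto against mouse transcripts. They deposited, per transcript, estimated counts and TPM (abundance per base of transcript, scaled to a common total). The submitters' processing notes name kallisto, DESeq2 and the build GRCh38, while the study's methods give a mouse transcriptome on GRCm38, and the mouse transcript identifiers fit the latter. Of 115270 deposited transcripts, 113580 matched GENCODE M21 and were summed to 35580 genes. The effective length of each transcript was the same in all 20 tables, and unmatched transcripts held at most 0.556% of a library.

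Summed estimated counts were rounded and tested in R 4.3.3 with edgeR 4.0.16 (TMM factors, filterByExpr, quasi-likelihood test, Benjamini-Hochberg adjustment over all genes tested, threshold 0.05). Genotype was tested within each tissue, and tissue and the interaction in 1 fit of all 20 samples. Shares were compared by exact permutation. Alternatives were DESeq2 1.42.0, no filter, a length offset, a replicate block, 1 fit of all samples and leaving out each replicate. On data simulated for the hippocampus comparison (14796 genes, 200 changed by a log2 of 1), edgeR found 86.5% of those changed, with 5.98% false calls. In the neocortex simulation (14930 genes) the figures were 90.0% and 3.23%. DESeq2 gave 11.4% false calls in the hippocampus simulation and 9.41% in the neocortex one. The largest genotype difference of a member was -0.19 (Ago2, hippocampus). The simulations thus do not say how often changes of that size would be found.

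Genes named in the other lists were the 2 highest and 2 lowest called genes of each list in each tissue comparison. Stretches shared with other genes were found by BLAST 2.17.0 (identity of 95% over 100 bases or more). Members and lists were chosen with earlier results of these data known. Replicate libraries differed by more than counting error (chi-square per gene 4.41 to 19.3 over 40 pairs), so none was counted as a repeat.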

Additional observations from a re-analysis of the deposited data

Results flagged for a closer look

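A library was set aside for a second look where its gap to the nearest of the other 4 libraries of its group, divided by the range of the group, was above Dixon's 95% critical value. Of 80 groups tested, 9 had such a library. Chance gives about 1 in 20 for normally spread values, a rate that does not hold for shares capped at 100%. At the level of genes there were 2: Drosha was lowest in hippocampus miR-324-null 5 at 113 CPM, where the other 4 lay at 122 to 126, and Dicer1 was highest in neocortex WT 4 at 63.8 CPM, where the others lay at 59.4 to 60.5. Hippocampus miR-324-null 5 is also the null hippocampal library with choroid plexus RNA, whose part in the Drosha value was not tested. In hippocampus WT 3, which held more of that RNA, Drosha was at 114 CPM within a group range of 107 to 117.

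The other 7 were shares of a leading transcript. Dicer1-201 held 68.0% of Dicer1 TPM in neocortex miR-324-null 2 and 82.1 to 85.1% in the others. This library is the neocortical one with choroid plexus RNA, whose part in the share was not tested. Dgcr8-201 held 37.8% in neocortex WT 2 against 48.9 to 53.1%, Ago3-201 held 76.3% in neocortex WT 3 against 89.0 to 93.9%, and Ago1-201 held 89.0% in hippocampus miR-324-null 4 against 95.8 to 98.0%. Ago2-201 held 96.6% in hippocampus miR-324-null 1, 96.2% in neocortex WT 2 and 93.9% in neocortex miR-324-null 4, where it held all of the Ago2 TPM in the other libraries of each group.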

How the results depend on the processing

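No member was called between genotypes in either tissue or in the interaction under any alternative. Over all genes, the hippocampus gave 141 calls with DESeq2, 4 with a replicate block and 83 with all 20 samples in 1 fit, and 10 to 31 when 1 replicate was left out. The neocortex gave 241 with DESeq2, 30 with the length offset, 30 with the block, and 27 to 566 when 1 was left out, the highest without miR-324-null 5. That library had the highest neocortical marker sum of its group, 851 CPM, whose part in this count was not tested. The interaction gave 6, 1 and 0 with DESeq2, the length offset and the block, and 1 to 20 when 1 was left out. All transcripts gave 0 and 1 calls with the block, and 4 to 12 and 6 to 24 when 1 was left out.

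Between tissues, 0 members were called with the length offset in either genotype and 0 in miR-324-null with the block; leaving out 1 replicate gave 1 to 3 in WT and 0 to 1 in miR-324-null. After group means were taken out, r of same-numbered samples between tissues was -0.10 to 0.10 in WT and 0.017 to 0.18 in miR-324-null. The best match had the same number in 2 of 5 pairs in WT and 3 of 5 in miR-324-null. Whether same-numbered samples came from 1 mouse is not settled by this, and the block stands here only. The summed TPM without mitochondrial transcripts was 268, 267, 278 and 279. The cause of these changes was not tested.

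With the length offset the calls of Snd1, Lsm1 and Tnrc6a in WT, of Cnot8 in miR-324-null and of Erh and Eif4enif1 in both genotypes were lost too, with Snd1 at 0.23 and Lsm1 at 0.034, while Snd1 in miR-324-null kept its call at 0.69. Of 6 settings, Cnot8 held in 2 and Tnrc6a in 3. With the 10 samples of the genotype alone, Tsnax and Parn in miR-324-null were lost (adjusted p = 0.0539 and 0.0716).

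Signs of uncalled differences near 0 turned. With the length offset, hippocampal genotype differences became 0.0660 (Dgcr8), -0.0469 (Tarbp2) and 0.0690 (Tut7), the neocortical one of Dgcr8 -0.0333, and the tissue difference of Tut7 in miR-324-null 0.0888. Leaving out 1 replicate gave, in the hippocampus, -0.0432 to 0.0464 (Dgcr8), -0.0256 to 0.0806 (Tarbp2) and -0.0253 to 0.0609 (Tut4). In the neocortex it gave -0.0624 to 0.0365 (Ago2), -0.0401 to 0.0714 (Ago4), -0.0365 to 0.0492 (Dgcr8), -0.0089 to 0.0611 (Dicer1) and -0.0910 to 0.0038 (Tut4). Between tissues it gave -0.0606 to 0.0261 for Dgcr8 in WT, and in miR-324-null -0.0619 to 0.0206 (Dgcr8), -0.0672 to 0.0015 (Dicer1), -0.0351 to 0.0177 (Drosha) and -0.0689 to 0.0368 (Tarbp2).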
